A study of Mus musculus with 12 samples.

Results

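The medium spiny neurons of the striatum, the nucleus that lies under the cortex, are marked by a small group of strongly expressed genes. The members were taken by symbol from the deposited table of identifiers: *Drd1*, *Drd2*, *Adora2a*, *Ppp1r1b*, *Penk*, *Tac1*, *Rgs9*, *Pde10a* and *Adcy5*, 9 of the 36047 genes in the table. All 9 were found and all 9 passed the filter on low values at both ages. The libraries were made from polyA RNA of the brain cortex of WT mice and of *Gde2*KO mice, which lack the surface enzyme GDE2 (gene *Gdpd5*) in all cells, at 4 months and at 19 months of age, with 3 libraries in each of the 4 groups. The labels give no other allele, treatment or sex. The 4-month libraries are named by the replicate numbers of their labels, and the 19-month libraries are called A, B and C because their columns give a genotype but no number. Because the labelled tissue is cortex, the genes were read here as a check of what each dissection held.

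Medium spiny neurons are the GABAergic output cells of the striatum and fall into a pair of classes. Cells of the direct pathway carry the dopamine receptor D1 (*Drd1*), which raises cAMP, and make the precursor of substance P (*Tac1*). Cells of the indirect pathway carry the dopamine receptor D2 (*Drd2*), which lowers cAMP, the adenosine receptor 2a (*Adora2a*), which raises it, and the precursor of the enkephalins (*Penk*). Both classes hold the signaling proteins DARPP-32 (*Ppp1r1b*), a phosphatase inhibitor switched on by protein kinase A, adenylyl cyclase 5 (*Adcy5*), phosphodiesterase 10A (*Pde10a*), which breaks cAMP and cGMP down, and RGS9 (*Rgs9*), which speeds the shut-off of G proteins. These genes are not silent in cortex: *Drd1*, *Tac1*, *Penk*, *Ppp1r1b* and *Adcy5* are known from subsets of cortical neurons, whereas *Adora2a* and *Drd2* are known to be sparse there.

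The 9 genes lie on 8 different chromosomes of GRCm38. *Rgs9* (ENSMUSG00000020599.13, 109225355 to 109298129) and *Ppp1r1b* (ENSMUSG00000061718.12, 98348404 to 98357796) are both on chromosome 11. The receptor genes are *Drd1* (ENSMUSG00000021478.6, chromosome 13, 54051183 to 54055705), *Drd2* (ENSMUSG00000032259.8, chromosome 9, 49340627 to 49408177) and *Adora2a* (ENSMUSG00000020178.6, chromosome 10, 75316877 to 75334784). The peptide genes are *Penk* (ENSMUSG00000045573.9, chromosome 4, 4133531 to 4138819) and *Tac1* (ENSMUSG00000061762.12, chromosome 6, 7554879 to 7565834). The enzyme genes are *Pde10a* (ENSMUSG00000023868.17, chromosome 17, 8525372 to 8986648) and *Adcy5* (ENSMUSG00000022840.9, chromosome 16, 35154877 to 35305738). The table of RefSeq promoter windows used here matched 6 of the 9, *Drd1*, *Drd2*, *Tac1*, *Rgs9*, *Pde10a* and *Adcy5*, and not *Adora2a*, *Ppp1r1b* and *Penk*. The stretches before the start sites of a direct pathway receptor, the indirect pathway receptor and a pair of signaling genes are shown, since these genes moved together in the libraries described next. They are written 5′ to 3′ on the strand of the gene, from GRCm38.p6, and end before the transcription starts of both RefSeq and GENCODE. Capitals mark GGGCGG on either strand, the letters of a GC box.
Drd1, chr13:54055706-54055908, minus strand: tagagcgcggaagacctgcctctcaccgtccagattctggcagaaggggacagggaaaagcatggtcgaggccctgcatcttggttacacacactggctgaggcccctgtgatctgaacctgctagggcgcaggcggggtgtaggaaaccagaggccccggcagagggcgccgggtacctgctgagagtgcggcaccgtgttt
Drd2, chr9:49340153-49340402, plus strand: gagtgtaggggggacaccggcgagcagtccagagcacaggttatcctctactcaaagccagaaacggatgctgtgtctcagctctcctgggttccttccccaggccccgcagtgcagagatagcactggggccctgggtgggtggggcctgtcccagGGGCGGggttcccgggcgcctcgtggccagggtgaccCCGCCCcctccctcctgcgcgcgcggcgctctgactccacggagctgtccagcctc
Rgs9, chr11:109298182-109298431, minus strand: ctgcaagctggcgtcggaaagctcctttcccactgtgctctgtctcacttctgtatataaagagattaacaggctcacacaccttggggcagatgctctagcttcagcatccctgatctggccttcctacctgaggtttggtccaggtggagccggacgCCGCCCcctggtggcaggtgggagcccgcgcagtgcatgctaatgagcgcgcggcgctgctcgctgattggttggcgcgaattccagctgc
Adcy5, chr16:35154614-35154863, plus strand: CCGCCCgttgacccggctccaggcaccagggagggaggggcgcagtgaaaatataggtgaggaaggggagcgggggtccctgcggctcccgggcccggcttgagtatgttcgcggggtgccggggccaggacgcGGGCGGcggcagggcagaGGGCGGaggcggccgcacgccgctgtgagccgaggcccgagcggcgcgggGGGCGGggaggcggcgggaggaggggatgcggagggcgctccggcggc
The stretches held 0, 2, 1 and 4 GC boxes in that order, with a G and C content of 62.6%, 68.8%, 59.6% and 78.0%. Over the whole windows of 300 bases, which reach 50 bases past the start, all 8 windows of the 6 genes held a GC box (*Drd1* and *Pde10a* have 2 windows each), as 35.7% of the 32851 RefSeq windows did. The letters TATAAA on either strand were in 1 of the 8 windows, that of *Rgs9*, and in 13.6% of all windows. TGACG on either strand, the core of a cAMP response element, was in 1, that of *Tac1*, and in 20.8% of all windows. A match of letters does not show that a factor binds.

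The libraries of 4-month cortices held 46432108 to 59726331 estimated reads, and those of 19-month cortices 3707941 to 44602117. Low depth touched 19-month WT library A and *Gde2*KO library A, in which 1 read stood for 4.66 and 8.29 normalized counts. The targeted gene *Gdpd5* was lower in every *Gde2*KO library than in any WT library of its age, with a log2 fold change of -0.85 (SE 0.25) at 4 months that was not called (limma adjusted p = 0.463) and of -1.11 (SE 0.12) at 19 months that was called (limma adjusted p = 0.0111). A pair of libraries stood apart. In 4-month WT replicates 1 and 2 the summed level of 10 hippocampal marker genes was 15168 and 13889 normalized counts, against 1314 to 2267 in the other 4 libraries of that age, and 9 of the 10 genes were highest in these 2 libraries, as 12.8% of all tested genes were. The 4-month fold changes of the 9 genes and the list medians below are therefore also given without them. Markers of cortical projection neurons were present in all 12 libraries, with *Slc17a7*, the vesicular glutamate transporter of cortical neurons, at 34416 to 65578 normalized counts.

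At 4 months the medium spiny neuron genes were low in WT replicates 1 and 2 and high in the other 4 libraries, the third WT library included. All 9 genes had these 2 libraries as their lowest, as 22.1% of all 19035 tested genes did, and all 9 were highest in *Gde2*KO replicate 2. At 19 months all 9 were highest in *Gde2*KO library C and second highest in *Gde2*KO library A. These were the 2 highest libraries, in either order, for 9.003% of the 18583 tested genes. A comparison of WT with *Gde2*KO at 4 months thus joined 1 high and 2 low WT libraries. Values are normalized counts (estimated counts divided by a size factor of the library) summed over the transcripts of a gene. In bulk tissue a smaller number of cells of a type cannot be told apart from less RNA per cell.

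**Figure D1:**
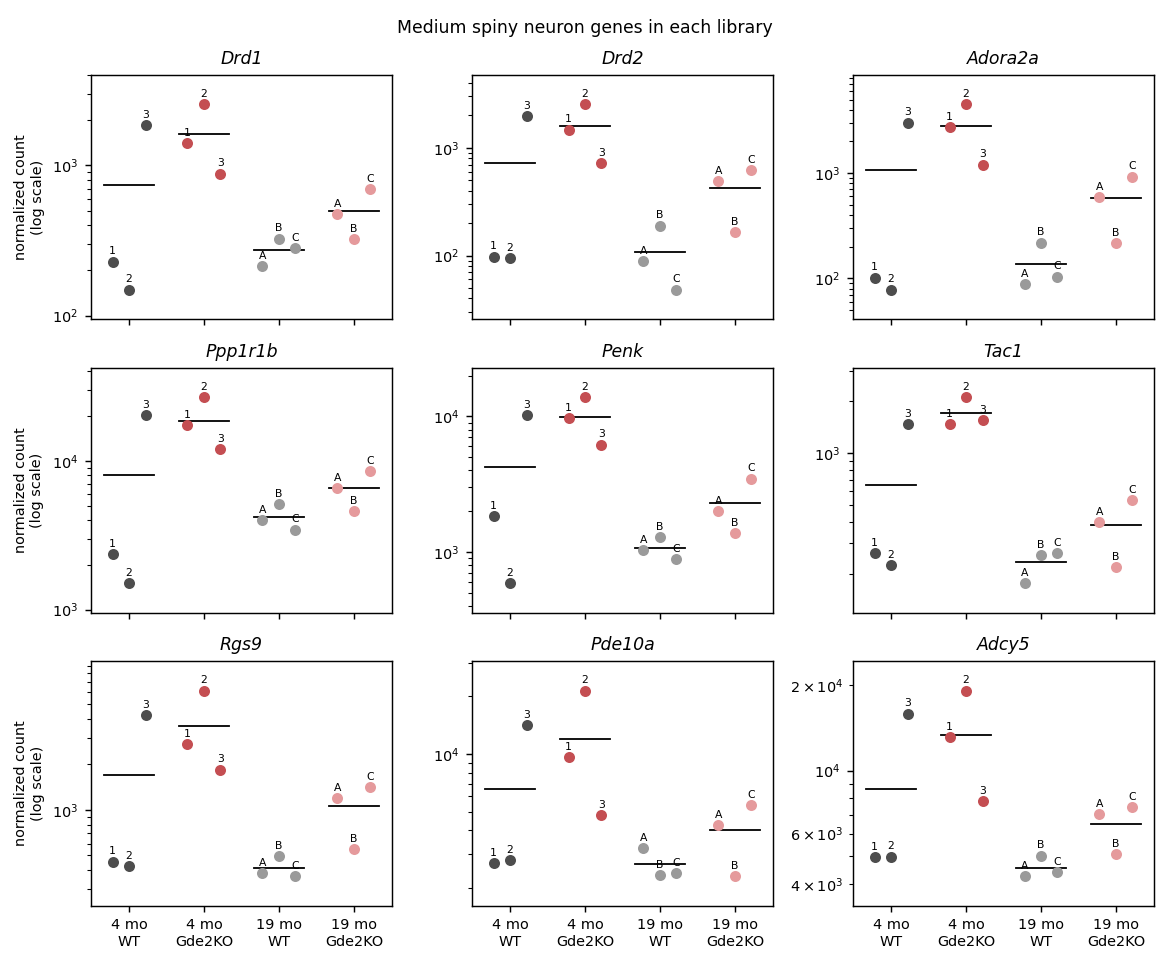
Normalized counts of the 9 genes (log axis, 1 panel per gene) in each library, by group. Points are libraries with their replicate number (4 months) or letter (19 months), and lines are group means. In every panel 4-month WT 1 and 2 lie below the other 4-month libraries, and 19-month *Gde2*KO A and C lie above the other 19-month libraries.

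Of the direct pathway genes, *Drd1* was at 229, 149 and 1849 normalized counts in 4-month WT replicates 1, 2 and 3 and at 1402, 2559 and 882 in *Gde2*KO replicates 1, 2 and 3. WT replicate 3 was above 2 of the 3 *Gde2*KO libraries, so the genotypes overlapped. The log2 fold change of *Drd1*, *Gde2*KO minus WT, was 1.88 (SE 0.86, limma adjusted p = 0.464), and it was not called. *Tac1* was at 262, 225 and 1476 in WT and at 1469, 2098 and 1549 in *Gde2*KO cortices. WT replicate 3 lay just above the lowest *Gde2*KO library, and the log2 fold change was 1.92 (SE 0.64, limma adjusted p = 0.463). Among the *Gde2*KO libraries *Tac1* varied least of the 9 genes, by 1.43-fold from lowest to highest, where *Drd1* varied by 2.90-fold.

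The indirect pathway genes spanned the widest range. *Adora2a* was at 102, 78.0 and 3011 normalized counts in the 4-month WT libraries and at 2722, 4512 and 1206 in the *Gde2*KO libraries. The third WT library was thus 38.6-fold above the lowest, the largest ratio of any member within a group. *Drd2* was at 98.0, 94.96 and 1980.3 in WT and at 1477, 2539 and 722 in *Gde2*KO cortices. *Penk* was at 1828, 593 and 10265 in WT and at 9673, 13809.9 and 6190.4 in *Gde2*KO cortices. For each of the 3 genes WT replicate 3 was second only to *Gde2*KO replicate 2. The log2 fold changes were 3.09 for *Adora2a* (SE 1.27), 2.39 for *Drd2* (SE 1.10) and 2.07 for *Penk* (SE 0.89), with limma adjusted p of 0.463 to 0.464, and none was called. Of the 9 genes *Penk* differed most between WT replicates 1 and 2.

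The signaling genes of both classes were also lowest in WT replicates 1 and 2 and highest in *Gde2*KO replicate 2. *Ppp1r1b* was at 2359, 1513 and 20306 in the WT libraries and at 17321, 26699 and 11934 in the *Gde2*KO libraries. *Rgs9* was at 455, 426 and 4231 in WT and at 2732, 6149 and 1847 in *Gde2*KO cortices. The lowest of the other 4 libraries stood 5.06-fold above the higher of WT replicates 1 and 2 for *Ppp1r1b* and 4.06-fold for *Rgs9*, against 1.72-fold for *Pde10a* and 1.57-fold for *Adcy5*. *Pde10a* was at 2687, 2777 and 14189 in WT and at 9635, 21458 and 4784 in *Gde2*KO cortices. *Adcy5*, also used by many neurons outside the striatum, was at 4975, 4981 and 15856 in WT and at 13069, 19097 and 7797 in *Gde2*KO cortices. For *Adcy5* the highest of the 6 libraries was 3.84-fold above the lowest, against 17.2-fold for *Drd1*. The log2 fold changes were 2.08 for *Ppp1r1b* (SE 0.86), 1.75 for *Rgs9* (SE 0.86), 1.07 for *Pde10a* (SE 0.73) and 0.77 for *Adcy5* (SE 0.49), with limma adjusted p of 0.463 to 0.524.

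For all 9 genes the mean was higher in *Gde2*KO than in WT cortices at 4 months, and 0 of the 9 passed both thresholds of a call, a limma adjusted p under 0.1 and a change of over 0.721 in either direction on the log2 scale, as 0.126% of all tested genes were. At an unadjusted p under 0.05 stood 4 of the 9, *Adora2a*, *Ppp1r1b*, *Penk* and *Tac1*, as did 10.6% of all tested genes. In 0 of the 9 did the genotypes separate without overlap, while 11.1% of all tested genes had every *Gde2*KO library above every WT library. The median log2 fold change over the 9 was 1.92, beside 0.11 over all tested genes. Without WT replicate 3, 9 of the 9 were called higher in *Gde2*KO, with limma adjusted p of 0.000566 for *Tac1* to 0.0762 for *Pde10a*, in a fit that called 5.63% of 18798 genes higher. Without WT replicates 1 and 2, when WT replicate 3 stood alone and was taken to vary like the *Gde2*KO group, 8 of the 9 fold changes turned negative, from -0.13 for *Penk* to -0.51 for *Pde10a*. *Tac1* was then at 0.19 (SE 0.28), and 0 of the 9 were called (limma adjusted p of 0.9999 for each). Without WT replicate 2 alone the median was 1.18 and 0 were called. The direction of the genotype difference at 4 months therefore rested on which WT libraries were used.

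**Figure D2:**
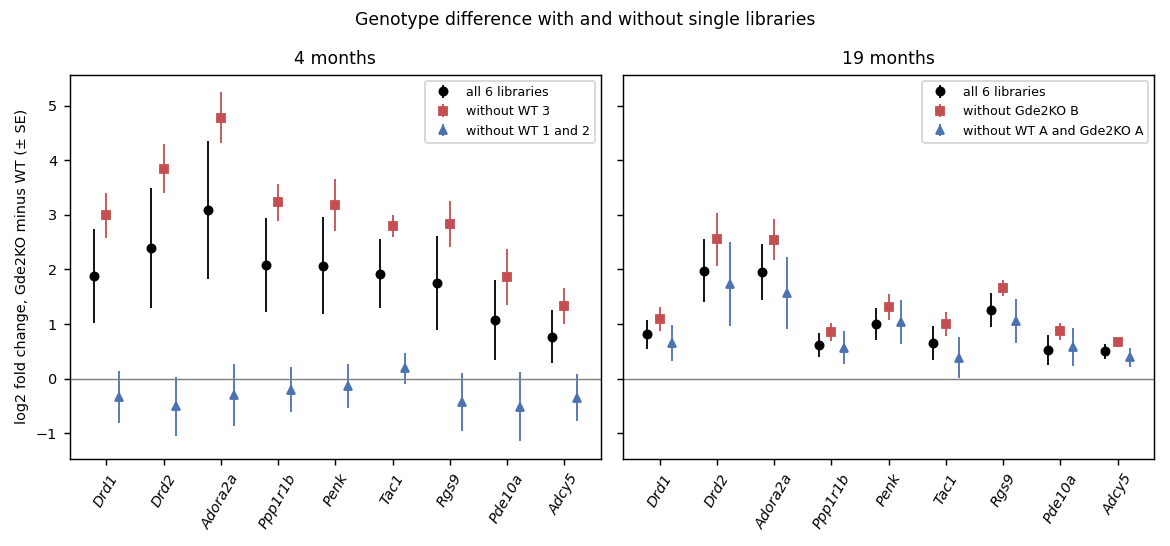
Log2 fold changes of the 9 genes, *Gde2*KO minus WT, with standard errors, at 4 months (left) and 19 months (right). At 4 months the values without WT replicate 3 (squares) are all above those with 6 libraries (circles), and without WT replicates 1 and 2 (triangles) only *Tac1* is above 0. At 19 months all values are above 0 in the 3 fits drawn.

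The spread within the 4-month WT group was wider for these genes than for most. The SD of log2 values over the 3 WT libraries was 0.96 to 2.93 for the 9 genes, with a median of 1.94, beside a median of 0.18 over all tested genes. All 9 differed by 3-fold or more between WT libraries, as 6.54% of all tested genes did. In the 4-month *Gde2*KO group 4 of the 9 did (4.72% of all genes), in the 19-month WT group 1 (7.32%) and in the 19-month *Gde2*KO group 2 (11.02%). The gene of the 19-month WT group was *Drd2*, and those of the *Gde2*KO group were *Drd2* and *Adora2a*.

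At 19 months the WT libraries spanned less than the *Gde2*KO libraries for 8 of the 9 genes by the ratio of highest to lowest, and for *Drd2* they spanned 3.93-fold against 3.75-fold. *Drd1* was at 214, 325 and 280 normalized counts in WT libraries A, B and C and at 473, 324 and 694 in *Gde2*KO libraries A, B and C. *Tac1* was at 177, 257 and 263 in WT and at 398, 218 and 533 in *Gde2*KO cortices. For both direct pathway genes *Gde2*KO library B lay inside the WT range and the other two *Gde2*KO libraries above it. The log2 fold changes were 0.81 for *Drd1* (SE 0.27, limma adjusted p = 0.645) and 0.65 for *Tac1* (SE 0.31, limma adjusted p = 0.712).

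Of the indirect pathway genes, *Drd2* was at 88.5, 189.7 and 48.3 in the 19-month WT libraries and at 489, 164 and 617 in the *Gde2*KO libraries. *Adora2a* was at 88.5, 218 and 103.8 in WT and at 589, 217 and 923 in *Gde2*KO cortices. *Penk* was at 1029.6, 1287 and 892 in WT and at 1990.4, 1379 and 3472 in *Gde2*KO cortices. *Gde2*KO library B was within the WT range for *Drd2* and *Adora2a*, and above it for *Penk*. The log2 fold changes were 1.97 for *Drd2* (SE 0.58), 1.95 for *Adora2a* (SE 0.52) and 1.004 for *Penk* (SE 0.29), with limma adjusted p of 0.567 to 0.614. Library A rests on few reads in each genotype: *Drd2* had 19 estimated reads in WT library A, an exact Poisson 95% interval of 53.3 to 138.2 normalized counts, and 59 in *Gde2*KO library A, an interval of 372 to 631. These intervals cover counting error only, and they do not overlap for *Drd2*. The interval of *Drd2* in *Gde2*KO library A also lies above the value of every WT library.

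The signaling genes had the same leading libraries at 19 months. *Ppp1r1b* was at 3997, 5145 and 3448 in WT and at 6543, 4575 and 8527 in *Gde2*KO cortices. *Rgs9* was at 382, 496 and 366 in WT and at 1201, 552 and 1408 in *Gde2*KO cortices. *Pde10a* was at 3224, 2326 and 2389 in WT and at 4238, 2301 and 5411 in *Gde2*KO cortices. The genotypes overlapped for *Ppp1r1b* and *Pde10a*, and did not for *Rgs9*. *Adcy5* was at 4258, 5025 and 4388 in WT and at 7008, 5089 and 7429 in *Gde2*KO cortices, with *Gde2*KO library B just above the highest WT library. The log2 fold changes were 1.25 for *Rgs9* (SE 0.31), 0.62 for *Ppp1r1b* (SE 0.22), 0.52 for *Pde10a* (SE 0.28) and 0.50 for *Adcy5* (SE 0.13), with limma adjusted p of 0.513 to 0.731.

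As at 4 months, all 9 means were higher in *Gde2*KO cortices at 19 months, and 0 of the 9 were called by limma, as 0.0969% of all tested genes were. At an unadjusted p under 0.05 stood 7 of the 9, all except *Tac1* and *Pde10a*, as did 6.91% of all tested genes. The genotypes did not overlap for 3 of the 9, *Penk*, *Rgs9* and *Adcy5*, each higher in *Gde2*KO, as for 5.85% of all tested genes. The median log2 fold change over the 9 was 0.81, beside -0.02 over all tested genes. Without *Gde2*KO library B, 2 of the 9 were called higher, *Rgs9* (1.66, SE 0.15, limma adjusted p = 0.00650) and *Adora2a* (2.54, SE 0.37, limma adjusted p = 0.0584), in a fit that called 0.0710% of 18314 genes higher. Without *Gde2*KO library C, the highest library for all 9, the median fell to 0.54 and 0 were called, with *Pde10a* at 0.26, *Tac1* at 0.36, *Ppp1r1b* at 0.40, *Drd1* at 0.54 and *Penk* at 0.65. *Adcy5* had a limma adjusted p of 0.0234 in that fit and a log2 fold change of 0.67, under the fold threshold of 0.721. Without both libraries of low depth the median over the 9 was 0.65 and 0 were called.

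The interaction of genotype and age, which takes the 4-month log2 fold change from the 19-month one, was negative for all 9 genes, from -0.27 for *Adcy5* (SE 0.57) to -1.47 for *Ppp1r1b* (SE 1.01). limma called 0 of the 9, with adjusted p of 0.473 to 0.897, and 0.0480% of all tested genes. At an unadjusted p under 0.05 stood 0 of the 9 and 12.9% of all tested genes. The comparison uses the 4-month fold changes and so the same WT libraries. Without 4-month WT replicate 3, 5 of the 9 were called with a negative interaction, *Drd1*, *Adora2a*, *Ppp1r1b*, *Penk* and *Tac1*, in a fit that called 7.30% of 18522 genes negative. Without 4-month WT replicates 1 and 2 all 9 interactions were positive, 0.46 for *Tac1* to 2.48 for *Drd2*, and 0 were called (limma adjusted p of 0.873 for each).

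Levels of different genes were set side by side on the length-corrected scale of normalized TPM. In 19-month WT cortices the order was *Ppp1r1b* (144.3 ± 30.3, SD, n = 3), *Penk* (71.9 ± 11.5), *Adcy5* (34.7 ± 2.95), *Pde10a* (24.1 ± 3.59), *Tac1* (17.2 ± 2.75), *Rgs9* (11.1 ± 2.35), *Drd1* (6.401 ± 1.55), *Adora2a* (5.10 ± 2.11) and *Drd2* (2.47 ± 1.64). Neighbors in this order did not overlap over the 3 libraries, except *Drd1* with *Adora2a* and *Adora2a* with *Drd2*. In 4-month *Gde2*KO cortices *Penk* (647 ± 287) and *Ppp1r1b* (627 ± 262) came first and overlapped, and *Tac1* (117.6 ± 27.5) followed without overlap. *Pde10a*, *Adcy5*, *Rgs9* and *Adora2a* then lay between 105.3 and 87.7 with overlapping libraries, and *Drd1* (48.8 ± 33.02) and *Drd2* (35.4 ± 21.5) came last. The mean of *Adora2a* was above that of *Drd1* in every group but 19-month WT, but these means were carried by the high libraries. In 4-month WT replicates 1 and 2 *Adora2a* was at 2.42 and 3.005 and *Drd1* at 8.06 and 4.59 normalized TPM, and in 19-month *Gde2*KO library B they were at 6.49 and 9.61.

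Ratios within a library do not depend on its size factor, and they were not the same in all libraries. *Drd2* over *Drd1* was 0.43, 0.64 and 1.07 in 4-month WT replicates 1, 2 and 3 and 1.05, 0.99 and 0.82 in the *Gde2*KO libraries. At 19 months it was 0.41, 0.58 and 0.17 in WT libraries A, B and C and 1.04, 0.51 and 0.89 in the *Gde2*KO libraries. The libraries low in medium spiny neuron genes thus had less of the D2 receptor for each unit of the D1 receptor. *Adora2a* over *Drd1* split the libraries in the same way, with 0.44 and 0.52 in WT replicates 1 and 2 against 1.37 to 1.94 in the other 4 libraries of 4 months, and 0.37 to 0.67 in 19-month WT and *Gde2*KO library B against 1.25 and 1.33 in *Gde2*KO libraries A and C. *Ppp1r1b* over *Adcy5* was 0.47 and 0.30 in WT replicates 1 and 2, lower than in any other library of either age (0.79 to 1.53). *Rgs9* over *Pde10a* was 0.17 and 0.15 in these 2 libraries and 0.28 to 0.39 in the other 4. *Penk* over *Tac1*, by contrast, was 6.97 in WT replicate 1 and 2.63 in WT replicate 2, and 4.00 to 6.95 in the others of 4 months.

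**Figure D3:**
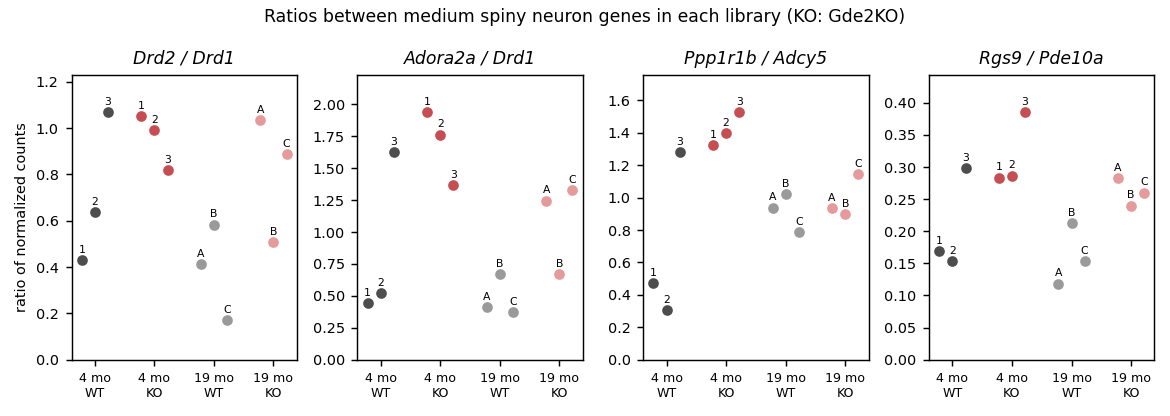
Ratios of normalized counts between pairs of medium spiny neuron genes in each library, by group, with replicate numbers or letters above the points. *Drd2* over *Drd1* and *Adora2a* over *Drd1* are low in 4-month WT 1 and 2, in the 19-month WT libraries and in 19-month *Gde2*KO B.

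The other genes known to mark medium spiny neurons were given by a list of 24, of which 23 passed the filter at each age and *Drd3*, with at most 8.36 normalized counts in any library, did not. Of the 23, 0 were called at 4 months, at 19 months or for the interaction by limma, with 9, 8 and 2 at an unadjusted p under 0.05. Over all tested genes those shares were 10.6%, 6.91% and 12.9%. Their median log2 fold change was 1.28 at 4 months and 0.41 at 19 months. Without WT replicates 1 and 2 the 4-month median turned to -0.25, with 2 of 24 genes higher in *Gde2*KO and 0 called. Without WT replicate 3 it was 2.15, and 17 of the 23 were called higher (5.63% of all genes) and 16 of the 23 had a negative interaction called (7.30%). Without *Gde2*KO library B, 3 of the 23 were called higher at 19 months (0.0710%). WT replicates 1 and 2 were the lowest libraries for 19 of the 23 (22.1% of all tested genes). *Gde2*KO libraries A and C were the highest of 19 months for 17 of the 23 (9.003%). *Scn4b*, a sodium channel subunit, was at 546, 716 and 11473 normalized counts in 4-month WT and at 8558, 15121 and 6001 in *Gde2*KO cortices. *Pde1b*, a calcium-dependent phosphodiesterase, was at 3291, 3801 and 12509 in WT and at 11336, 16612 and 8414 in *Gde2*KO cortices. *Gnal*, the G protein that links the D1 and adenosine receptors to adenylyl cyclase, was at 3827, 4316 and 10763 in WT and at 9657, 12349 and 7433 in *Gde2*KO cortices. *Ptpn5*, the striatum-enriched phosphatase STEP, was at 5077, 3835 and 7979 in WT and at 7868, 9078 and 8048 in *Gde2*KO cortices. These 4, the most abundant of the list, all had their 2 lowest values in WT replicates 1 and 2.

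**Figure D4:**
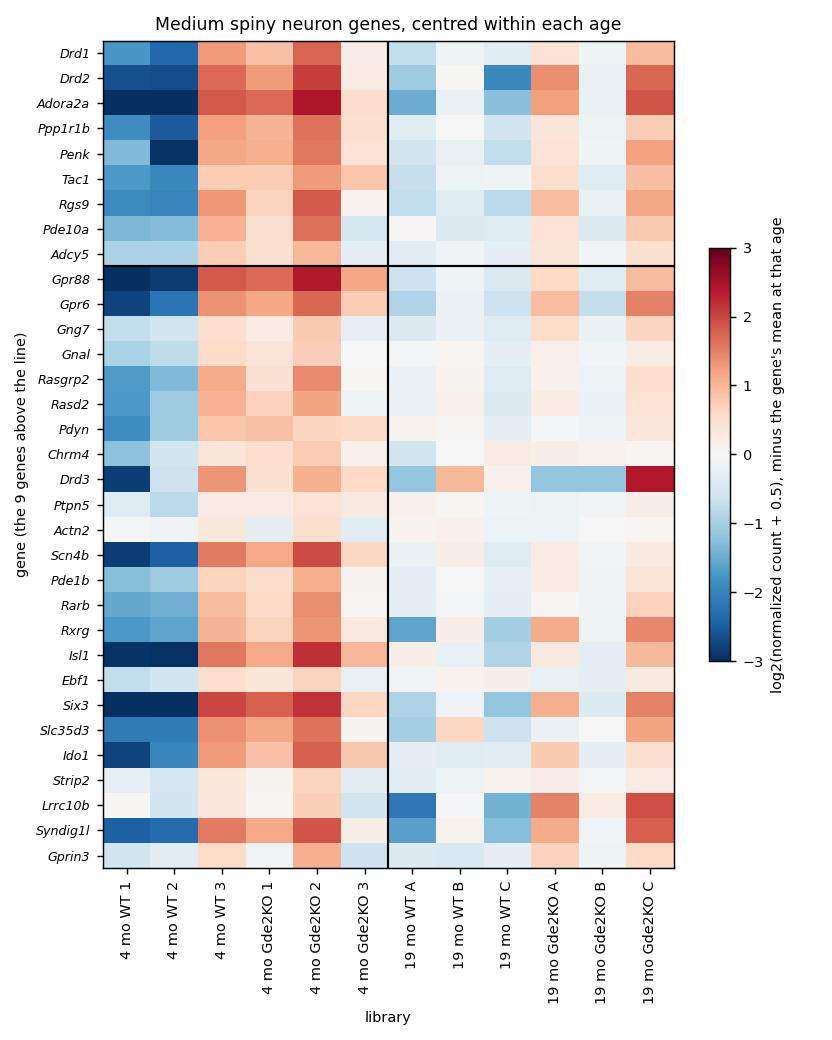
Log2 of normalized counts plus 0.5 in each library, minus the mean of the gene over the 6 libraries of that age, for the 9 genes (above the line) and the 24 other medium spiny neuron genes (below it). Most genes are blue, that is low, in 4-month WT 1 and 2, and the palest colors at 19 months are those of WT B and *Gde2*KO B. *Drd3* rests on few reads.

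Of 28 genes of dopamine and cAMP signaling that many neurons share, 0 were called by limma at either age or for the interaction. An unadjusted p under 0.05 was reached by 5, 3 and 5, beside 10.6%, 6.91% and 12.9% of all tested genes. The median log2 fold change was 0.19 at 4 months (0.15 without WT replicates 1 and 2) and -0.01 at 19 months. The 4-month fit without WT replicate 3 called 3 of the 28 higher and 1 lower. Of all 18798 genes in that fit 5.63% were called higher and 452 lower. WT replicates 1 and 2 were lowest for 10 of the 28, as for 22.1% of all tested genes. The summed level of the list was 321750 to 330058 normalized counts in 4-month WT and 326030 to 387230 in *Gde2*KO cortices. The most abundant, the calcineurin subunit *Ppp3ca*, the G protein *Gnas*, the cyclase *Adcy1* and the calcineurin subunit *Ppp3r1*, are neuronal genes not particular to striatum. Among the dopamine and adenosine receptors outside the 9, *Drd5*, a D1-like receptor, was at 484 and 420 normalized counts in WT replicates 1 and 2 and at 65.8 to 81.1 in the other 4 libraries of 4 months. *Adora1*, the widespread inhibitory adenosine receptor, was at 10038 and 8933 in these 2 and at 6636 to 8114 in the others. *Adora2b* went the other way, at 120 and 125 in these 2 and at 137 to 224 in the others. WT replicates 1 and 2 were highest for 2 of the 5 receptors (12.8% of all tested genes) and lowest for 2 (22.1%). Of these 5 receptors limma called 0 at either age. At each age 1 had an unadjusted p under 0.05, beside 10.6% and 6.91% of all tested genes. The 4-month fit without WT replicate 3 called 1 of them lower, as it did 452 of 18798 genes.

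Markers of other cells and regions also differed between the libraries, some in the direction of the medium spiny neuron genes and some in the opposite direction. Their part in the differences was not tested. The cholinergic neuron list, whose cells in the striatum are its large interneurons, summed to 66.8 and 151.6 normalized counts in WT replicates 1 and 2 and to 345 to 949 in the other 4 libraries. WT replicates 1 and 2 were lowest for 4 of the 5 genes of this list, as for 22.1% of all tested genes. The 4-month fit without WT replicate 3 called 4 of the 5 cholinergic genes higher, beside 5.63% of all tested genes. The list's median log2 fold change at 4 months was 1.94, and -0.84 without WT replicates 1 and 2. *Slc5a7* was at 27.5 and 49.7 in these 2 libraries and at 163 to 430 in the other 4. *Chat*, the acetylcholine-forming enzyme, was at 1.73 and 5.33 in these 2 libraries and at 75.9 to 238 in the other 4. At 19 months the cholinergic sum was 93.3 to 145.0 in WT and 131 to 256 in *Gde2*KO cortices, and *Lhx8* was listed at 0 in WT libraries A and C and in *Gde2*KO library A. The 4-month median log2 fold change of the hippocampal list was -1.91, and 0.48 without WT replicates 1 and 2. The fit without WT replicate 3 called 9 of the 10 hippocampal genes lower, beside 452 of all 18798 tested genes. Of its 10 genes, those of highest level were *Fibcd1* at 4288 and 4711 normalized counts in WT replicates 1 and 2 against 335 to 828 in the other 4, *Prox1* at 3548 and 3015 against 568 to 716, *C1ql2* at 2592 and 1819 against 52.6 to 147.2, and *Dsp* at 1464 and 1313 against 55.9 to 82.4. At 19 months the hippocampal sum was 986 to 1264 in WT and 1588 to 2415 in *Gde2*KO cortices, and *Fibcd1*, a gene of hippocampal CA1 neurons, was the only member of any list called at either age (log2 fold change 1.44, SE 0.15, limma adjusted p = 0.0111, higher in 3 of 3 *Gde2*KO libraries). Its call held in 12 of its 15 alternatives, with limma adjusted p of 0.00485 to 0.288, and was lost without WT library A, without the intensity trend and in normalized TPM.

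The cortical projection neuron list did not move as 1 block. Its sum was 66301 to 88342 normalized counts in 4-month WT and 62871 to 83629 in *Gde2*KO cortices. The fit without WT replicate 3 called 6 of its 12 genes higher (5.63% of all tested genes) and 2 lower (452 of 18798). WT replicates 1 and 2 were lowest for 7 of its 12 genes (22.1% of all tested genes) and highest for 4 (12.8%). *Lamp5* was at 717 and 1079 in these 2 libraries and at 5027 to 9308 in the other 4, *Tbr1* at 1236 and 1736 against 3852 to 4590.0, and *Rasgrf2* at 2864 and 3477 against 5109 to 6429. *Slc17a7*, which hippocampal and cortical neurons share, was at 65578 and 46206 against 34416 to 50136. The oligodendrocyte list had WT replicates 1 and 2 lowest for 7 of 7 genes (22.1% of all tested genes), with sums of 115327 and 110835 against 138201 to 153910. At 19 months the cortical projection list summed to 86537 to 90328 in WT and 79892 to 89939 in *Gde2*KO cortices. The oligodendrocyte list then summed to 80110 to 106475 and 94129 to 122466. *Gde2*KO libraries A and C were highest for 3 of the 7 oligodendrocyte genes, as for 9.003% of all tested genes. The 6 dopamine neuron genes, whose cells send axons to the striatum, were not all at 1 level. *Slc6a3*, the dopamine transporter, was at 0 to 16.6 and *Pitx3* at 0 to 3.12 normalized counts over the 12 libraries, while *Ddc* was at 138 to 318 and *Slc18a2* at 91.2 to 316. *Th*, the rate-limiting enzyme of dopamine synthesis, was at 30.3 and 12.1 in WT replicates 1 and 2 against 40.7 to 69.3 in the other 4 libraries of 4 months, and *Slc10a4* at 22.3 and 9.70 against 46.2 to 145.0. *Ddc* was also lower in these 2, at 186 and 176 against 261 to 318. *Slc18a2* was not, at 316 and 218 against 159 to 280. WT replicates 1 and 2 were lowest for 3 of the 5 tested genes of this list (22.1% of all tested genes).

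**Figure D5:**
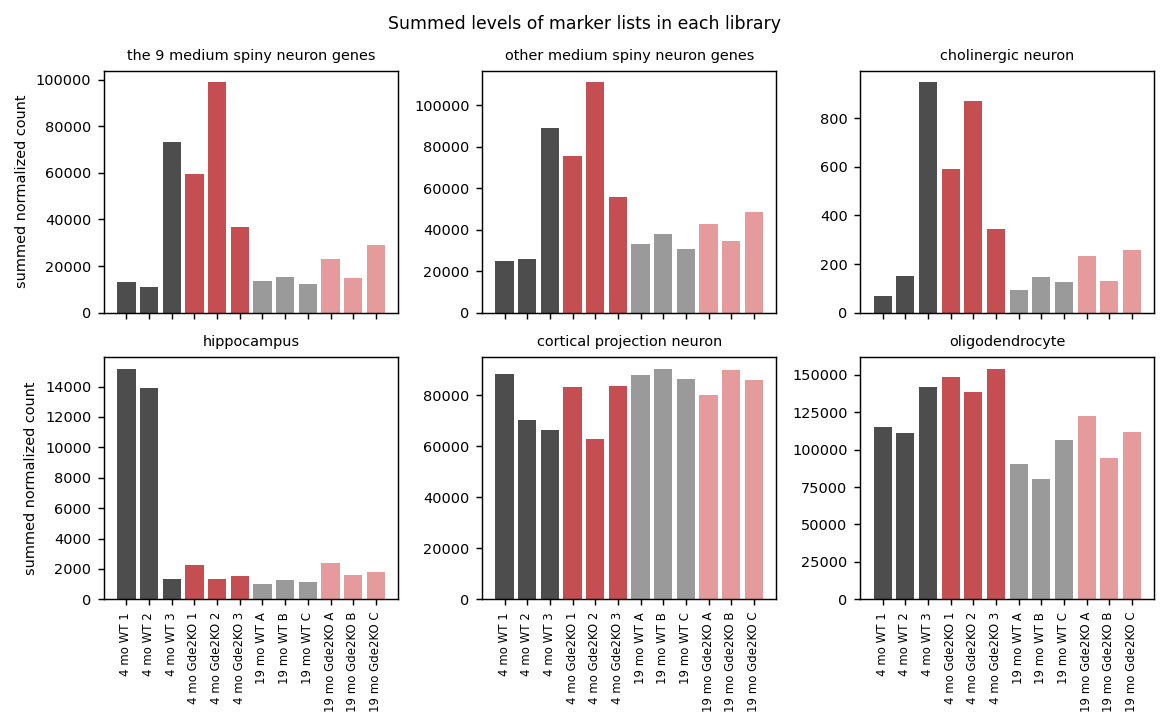
Summed normalized counts of 6 marker lists in each of the 12 libraries (dark, 4 months; pale, 19 months; grey, WT; red, *Gde2*KO). The sums of the 9 genes and of the cholinergic list are low and the hippocampal sum is high in 4-month WT 1 and 2, and the cortical projection neuron sums range from 62871 to 90328.

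The remaining lists also differed between the 4-month libraries. Thalamic markers, a region beside the striatum, summed to 6927 to 8451 in WT replicates 1 and 2 and to 9689 to 10715 in the other 4 libraries. WT replicates 1 and 2 were lowest for 3 of the 8 thalamic genes. Cortical interneuron sums were 22180 to 23123 against 29561 to 41284. Microglial sums were 7177 to 7697 against 8847 to 13570, and pan-neuronal sums 185777 to 187679 against 192482 to 270460. The astrocyte and choroid plexus sums of WT replicates 1 and 2 overlapped those of the other 4. Cortical interneuron genes, which like medium spiny neurons are GABAergic, had WT replicates 1 and 2 lowest for 5 of 7, microglial genes for 5 of 6, astrocyte genes for 1 of 6, choroid plexus genes for 1 of 6 tested and pan-neuronal genes for 2 of 6. Over all tested genes that share was 22.1%. The highest of 19 months were *Gde2*KO libraries A and C for 1 of 7 interneuron genes and for 0 of 8 thalamic, 0 of 6 microglial, 0 of 6 astrocyte and 0 of 7 choroid plexus genes. These 2 libraries were also highest for 5 of 10 hippocampal, 2 of 4 tested cholinergic and 1 of 4 tested dopamine neuron genes. The same held for 2 of 12 cortical projection neuron, 1 of 6 pan-neuronal, 3 of 28 signaling and 0 of 5 other receptor genes. Over all tested genes the share was 9.003%. The 4-month fit without WT replicate 3 called 2 of 7 interneuron, 1 of 8 thalamic and 2 of 5 tested dopamine neuron genes higher. That fit called 5.63% of all 18798 tested genes higher and 452 of them lower. It called 1 of 6 astrocyte genes lower, 1 choroid plexus gene in each direction, and 0 oligodendrocyte, microglial or pan-neuronal genes.

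Likeness to the 9 genes was measured as the Pearson correlation, over the 12 libraries, of a gene's log2 values centred within each age with the mean of the 9, for the 16112 genes whose mean reached 20 normalized counts. At 4 months the values fall into a low and a high cluster, so r there mostly reports that split, and it is given as a description with no p. The 10 most alike outside the 9 were *Sh3rf2* (r = 0.995), *Cd4* (0.993), *Six3* (0.991), *Dach1* (0.989), *Nexn* (0.987), *Cacng4* (0.978), *Pde1b* (0.978), *Klhl13* (0.975), *Rarb* (0.974) and *Gpr6* (0.974). Over the 6 libraries of 19 months alone their r was 0.893 to 0.994. *Six3*, *Rarb*, *Pde1b* and *Gpr6* are on the list of other medium spiny neuron genes, *Gpr6* as a receptor of the indirect pathway. *Sh3rf2* ran from 12.1 to 729 normalized counts at 4 months and from 31.7 to 190.3 at 19 months. *Cacng4*, a subunit of AMPA receptor complexes, had a narrower range, 654 to 1663 and 615 to 917. Among the 9 themselves the 36 pairs had r of 0.847 (*Tac1* with *Pde10a*) to 0.988, with a median of 0.952.

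Transcript shares, in percent of the gene's normalized TPM, showed which forms carried these levels. *Drd2* was listed with 1 transcript. *Penk* was listed with 2, and ENSMUST00000133567.1 held 56.2% ± 4.28 in 4-month WT and 53.1% ± 2.57 in *Gde2*KO cortices, and 55.1% ± 2.39 and 54.2% ± 1.37 at 19 months (SD, n = 3). For *Drd1*, the coding transcript ENSMUST00000221470.1, of 1317 coding bases, held 45.3% ± 3.61 and 53.5% ± 15.1 at 4 months and 65.3% ± 7.71 and 47.8% ± 5.57 at 19 months. Nearly all of the rest was given to ENSMUST00000222706.1, a noncoding form inside the gene. The form of *Drd1* with the longest coding sequence, ENSMUST00000021932.5 with 1338 bases, held a mean of 0.214%. *Rgs9* has a longer coding form known from brain and a shorter one known from retina. The transcript with the longest coding sequence, 2025 bases (ENSMUST00000020920.9, chromosome 11, 109225355 to 109298129), held 39.99%, 46.1% and 51.3% of *Rgs9* in 4-month WT replicates 1, 2 and 3 and 65.4%, 54.3% and 52.8% in the *Gde2*KO libraries. At 19 months it held 22.9%, 29.2% and 40.98% in WT libraries A, B and C and 50.6%, 31.8% and 32.2% in the *Gde2*KO libraries. ENSMUST00000106706.7, with a coding length of 1452 bases, held 20.9% ± 5.34 and 10.8% ± 4.03 at 4 months and 22.5% ± 4.202 and 20.1% ± 1.30 at 19 months. *Pde10a* was carried mostly by ENSMUST00000089085.9 (chromosome 17, 8801693 to 8986648), with 61.1% ± 5.95 and 70.9% ± 4.04 at 4 months and 63.5% ± 10.5 and 67.9% ± 13.4 at 19 months. These shares are estimates that divide reads between overlapping forms, and they were not tested.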

How the data were processed

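RNA was extracted from dissected mouse cortices and sequenced as paired-end polyA libraries, 3 per genotype and age. The authors deposited 2 signal tables made with Kallisto and Sleuth on the GRCm38 transcriptome: estimated counts divided by a size factor of the library (normalized counts), and TPM divided in the same way (normalized TPM), so that the TPM columns differ in their totals. Of the tools in the submitters' processing notes, bcl2fastq 2.17, Trimmomatic 0.36 and STAR 2.5.2b have a version. Both tables list 118489 transcripts. The 1673 without a gene, which hold 0.541% to 0.605% of a library's total, were left out, and the others were summed to 36047 genes. The estimated reads of a library are its total divided by the value of 1 read.

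Genes were tested where 47% of the libraries compared had 5 normalized counts or more. After a pseudocount of 0.5 was added, log2 values were fitted in limma 3.58.1 (R 4.3.3) with an intensity trend, 1 fit per age and 1 of all 12 libraries for the interaction. This took the place of the Sleuth test. Fold changes are on that scale. A call needed an adjusted p (Benjamini-Hochberg) under 0.1 together with a natural-log change of more than 0.5 in size, which is 0.721 in log2, while an interaction was called on its adjusted p. The fits were tested on simulated data. The genes named are the 9 members, *Gdpd5*, called list members, up to 4 examples of highest mean per list and the 10 genes most alike. Some others (*Drd3*, *Lhx8*, *Slc6a3*, *Pitx3*) were chosen after their values were seen. The members and lists were chosen with earlier results of these data known, so they are not independent of them. The sources used here give no batch, and the animals' replicate numbers at 4 months do not pair the libraries. The p-values set a difference between group means against the spread of these libraries within groups, which limma moderates over all genes. The alternatives changed the pseudocount, the filter, the scaling, the intensity trend or the threshold, used normalized TPM or a replicate block, or left libraries out. Positions are from GENCODE vM21, promoters from RefSeq. Tables were made in pandas 2.3.3 and numpy 2.4.6 under python 3.11.15, and plots in matplotlib 3.10.9.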

Additional observations from a re-analysis of the deposited data

How the results depend on the processing

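The count of members called stayed at 0 of 9 in 50 of 53 alternatives, and leaving out single libraries moved it. It ranged from 0 to 9 at 4 months over the 6 fits that leave out a library (9 without WT replicate 3), from 0 to 2 at 19 months (2 without *Gde2*KO library B), and from 0 to 5 over 12 such fits for the interaction (5 without 4-month WT replicate 3). Over these fits the median log2 fold change ranged from 1.18 to 2.99 at 4 months and from 0.54 to 1.09 at 19 months. Without 4-month WT replicates 1 and 2 the 4-month median over the 9 genes turned from 1.92 to -0.33, with *Drd1* at -0.33, *Drd2* at -0.51, *Adora2a* at -0.29, *Ppp1r1b* at -0.20, *Penk* at -0.13, *Rgs9* at -0.43, *Pde10a* at -0.51 and *Adcy5* at -0.34. The interaction turned from a median of -1.07 to 1.13 in the same setting, with *Drd1* at 1.146, *Drd2* at 2.48, *Adora2a* at 2.25, *Ppp1r1b* at 0.82, *Penk* at 1.13, *Tac1* at 0.46, *Rgs9* at 1.68, *Pde10a* at 1.03 and *Adcy5* at 0.84. That fit leaves 1 WT library, so these values rest on it. The interaction also turned positive with 1 library left out for *Drd2* (-1.87 to 0.31 over the 12 fits), *Rgs9* (-1.58 to 0.072) and *Adcy5* (-0.83 to 0.036), with no positive value called. The replicate block at 4 months called 0 of the 9 (limma adjusted p of 0.280 for *Tac1* to 0.562 for *Pde10a*) and changed no call of a member. Deviations of same-numbered libraries had correlations of 0.06, 0.007 and -0.05, so the numbers were not taken as pairs. No paired analysis was possible at 19 months because the columns carry no replicate number. Median-of-ratios scaling moved the median of all genes by -0.11 at 4 months and 0.12 for the interaction, and it turned no member. In normalized TPM all 108 levels, centred by age, and all 18 ratios of highest to lowest library moved by less than the SD between replicates. That limit is loose at 4 months, where the WT SD of log2 values was 0.96 to 2.93. Under it the 19-month ratio of *Adora2a* went from 10.4-fold to 7.31-fold. Depth limits *Drd1*, *Drd2*, *Adora2a* and *Tac1* in 19-month WT library A and *Gde2*KO library A, with 19 to 71 reads each.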

Other observations

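The sum of the 9 genes was also taken in each library. It is not a measure of medium spiny neurons alone, since cortical neurons express several of the genes. At 4 months it was 12995, 10837 and 73164 normalized counts in WT replicates 1, 2 and 3 and 59501, 98921 and 36912 in *Gde2*KO replicates 1, 2 and 3. At 19 months it was 13459, 15269.7 and 12178.5 in WT libraries A, B and C and 22929, 14820.5 and 29015 in *Gde2*KO libraries A, B and C. Differences between ages were not tested.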
